A study of Mus musculus with 6 samples.

Results

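The synaptic vesicle and release machinery was followed here as 38 genes, read in 6 RNA sequencing libraries of mouse spinal cord. The members were named in a list of vesicle proteins, SNARE proteins, synaptotagmins and active zone proteins, and a gene's transcripts were those assembled ones that shared exonic bases with it on the same strand. All 38 were found and all 38 passed the filter on low values, among 12894 genes tested. Lumbar cords of C57BL/6 mice aged 5 weeks had been split and the ventral side kept, from wild-type mice (WT, 3 libraries) and from Gde2KO mice (3 libraries), with no treatment named in the labels. Gde2KO mice lack GDE2, a membrane enzyme encoded by Gdpd5 that sheds GPI-anchored proteins, and the labels give neither the allele nor the sex. By its title the series is about neuronal Wnt signalling that depends on GDE2 and about how oligodendrocytes mature.

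At a chemical synapse, transmitter is stored in vesicles that dock at the active zone, a protein scaffold on the presynaptic membrane. The vesicle SNARE, a synaptobrevin, zips up with syntaxin and SNAP-25 on the plasma membrane, complexin holds and clamps the assembly, and a synaptotagmin triggers fusion when calcium enters. NSF and its SNAP cofactors then take the SNAREs apart, and dynamin and synaptojanin help to recover the membrane by endocytosis. Motor neurons and many fast interneurons of the spinal cord and brainstem are known for their use of Vamp1, Syt2 and Cplx1, where much of the forebrain relies on Vamp2, Syt1 and Cplx2.

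Levels are given in FPKM, fragments scaled to transcript length and library size, as the authors' Cufflinks assigned them to assembled transcripts. For each gene they were averaged over counted bases, the exonic bases exclusive to the gene and assembled in at least 3 libraries, and then scaled between libraries. Log2 differences are Gde2KO minus WT of FPKM + 0.1 and carry the limma test, with a gene called at a Benjamini-Hochberg adjusted p under 0.05 over all genes tested. Relative depth, around an average of 1, was 1.14 in Gde2KO replicate 3 and 0.91 to 1.03 in the other 5 libraries. Gde2KO replicate 3 also had the fewest assembled transcripts, 31899 against 33031 to 33791. Gdpd5 stood at 5.41, 6.58 and 5.99 FPKM in WT and 1.25, 1.20 and 0.952 FPKM in Gde2KO, low in every library labelled Gde2KO. Gde2KO replicate 3 stood apart in its assembly, with an intron chain known to the annotation in 56.3% of its multi-exon transcripts, where the other 5 libraries had 49.3% to 49.8%. Motor neuron markers, Chat among them, were present in all libraries. Of 8 sensory ganglion markers 5 (Avil, Prdm12, Scn10a, Trpv1 and Mrgprd) were listed at 0 throughout, and the summed level of the list stayed between 0.122 and 1.67 FPKM. Of 13 superficial dorsal horn markers 1, Nmu, was listed at 0 in all 6 libraries, and Tac1, Penk and Sst were present in each, although the dissection was ventral. Nothing in the labels says that libraries came from separate litters or days, so p-values measure the spread between these libraries only.

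No member of the machinery passed the test between the genotypes. None of the 38 genes was called, against a background of 0.116% of all genes called (15 of 12894; 0.0776% lower and 0.0388% higher, a balance that turned when any 1 WT library was left out), and the smallest adjusted p among the members was 0.882 by limma. At an unadjusted p under 0.05 there was 1 member, Syn3, lower in Gde2KO, where the background was 3.91% (2.25% lower and 1.66% higher). Log2 differences were below 0 in 29 members and above 0 in 9, or 76.3% below 0 against 49.9% of all genes. Their median was -0.067, against 0.0002 over all genes tested. The groups did not overlap in 6 members, all lower in Gde2KO (Stx1a, Cplx2, Syt7, Syt11, Syn3 and Pclo), which is 15.8% of the members against 5.79% of all genes lower, 5.06% higher and 10.9% in either direction. The 95% intervals of 37 members included 0, and they reached a median of 0.24 to each side on the log2 scale, so for a typical member a difference of that size could not be told from 0.

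**Figure D1:**
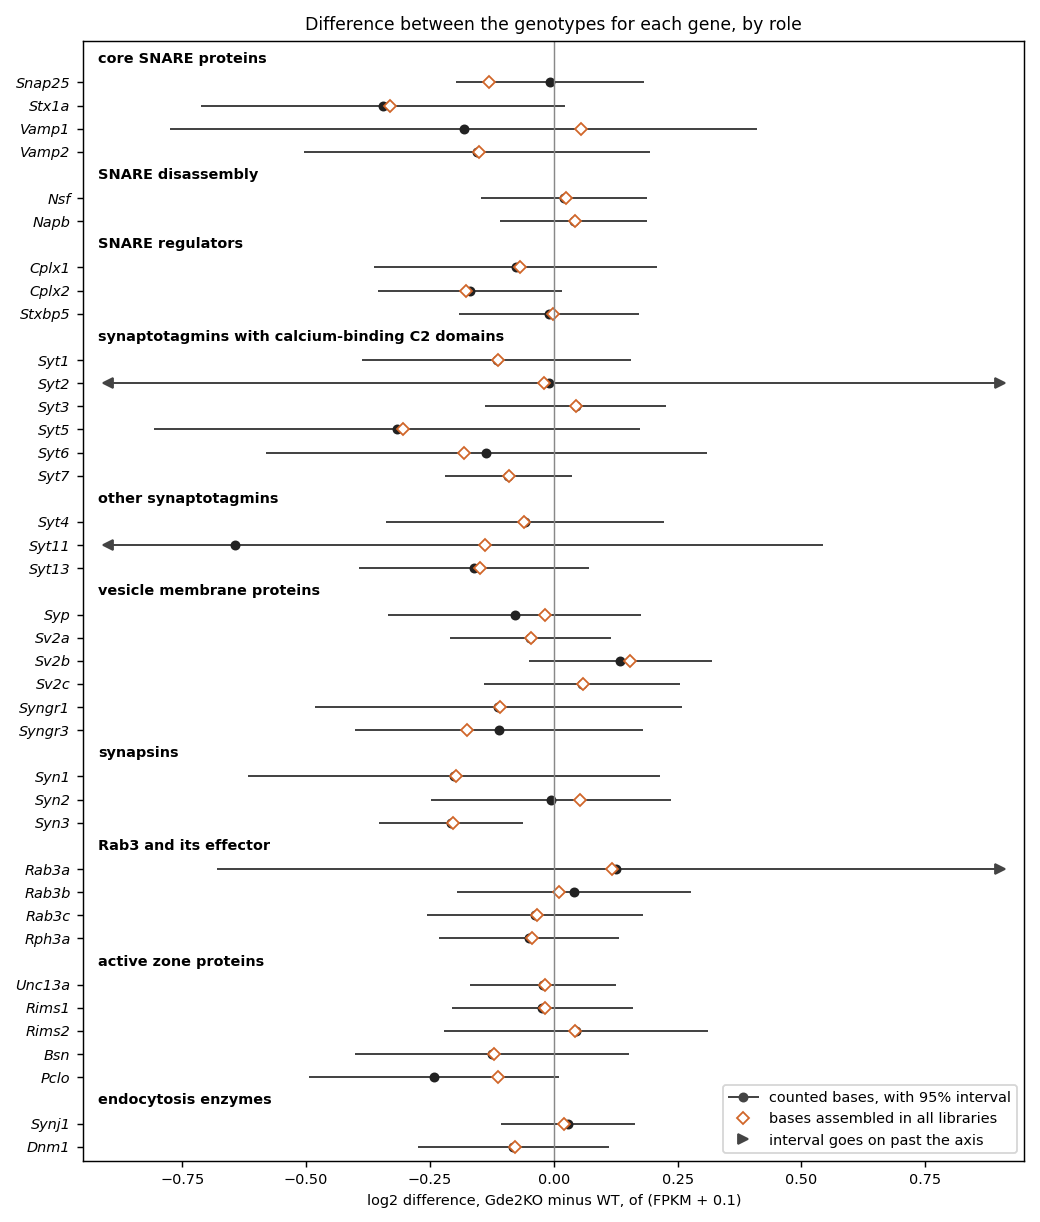
Log2 difference between Gde2KO and WT of each gene (horizontal axis) by role, over counted bases with the 95% limma interval (filled points) and over the bases assembled in all 6 libraries (open diamonds). All intervals except that of Syn3 cross 0, and the diamonds leave the filled points most for Syt11 (-0.64 against -0.14) and Vamp1 (-0.18 against 0.055).

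Much of the lean towards lower values sat in 1 library. Gde2KO replicate 3 held the lowest of the 6 values in 19 members, 50% of them, where it was the lowest library for 25.4% of all genes tested. Its median log2 difference from the WT mean over the 38 members was -0.12, against -0.020 and -0.011 in Gde2KO replicates 1 and 2 and -0.018 to 0.024 in the WT libraries. Without Gde2KO replicate 3, 23 of the 38 members were below 0 and their median was -0.015. Of all genes 48.6% were below 0 in that setting, with a median of 0.0037, so part of the lean remained. With every library kept, 27 were below 0 over the bases assembled in all 6 libraries, and the median was -0.052. There 49.6% of all genes were below 0, with a median of 0.0010.

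Superficial dorsal horn markers were also low in that library by their median. Their summed level was 302, 287 and 295 FPKM in WT and 353, 337 and 259 FPKM in Gde2KO, and their median log2 difference from the WT mean was 0.29, 0.092 and -0.39 in Gde2KO replicates 1, 2 and 3. The 14 general neuron markers had medians of 0.078, -0.088 and -0.10 in the same 3 libraries, and summed to 3651 to 4679 FPKM in WT and 4569 to 5008 FPKM in Gde2KO. Motor neuron markers summed to 206 to 245 FPKM in WT and 237 to 280.5 FPKM in Gde2KO, and Gde2KO replicate 3 was the second highest of the 6 libraries there. Summed levels in WT and Gde2KO were 6549 to 9594 and 7711 to 9607 FPKM for oligodendrocyte, 1475 to 1516 and 1516 to 1781 for astrocyte, 104 to 111 and 108 to 118 for microglia and 53.0 to 60.7 and 52.3 to 53.4 for endothelial markers. Markers from outside the cord varied more, with 96.3 to 286 and 34.1 to 292 FPKM for Schwann cells, 63.5 to 83.2 and 30.9 to 72.2 for meninges and 1.41 to 2.28 and 0.848 to 1.52 for skeletal muscle. By their median, endothelial markers were also low in Gde2KO replicate 3, at -0.31, against -0.13 and -0.096 in Gde2KO replicates 1 and 2. Oligodendrocyte, astrocyte and microglia markers had medians of 0.14, 0.0088 and 0.072 in Gde2KO replicate 3. Of the superficial dorsal horn markers, Calb2 was not low in that library, at 156 FPKM against 129, 132 and 150 FPKM in WT. No gene of these lists was called. The part of these markers, and of the different depth and assembly of that library, in the members' values was not tested. In bulk tissue, fewer cells of a type and less RNA per cell cannot be told apart.

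**Figure D2:**
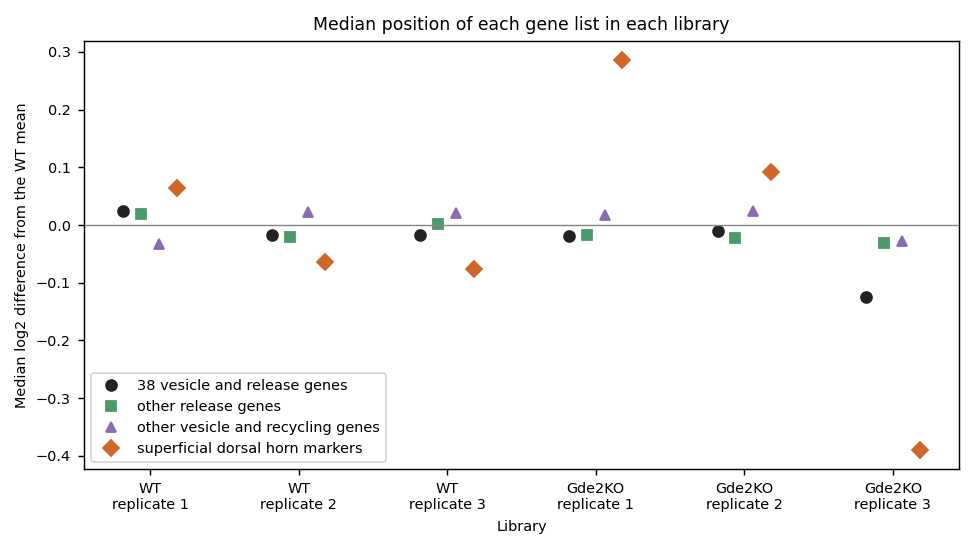
Median log2 difference from the WT mean (vertical axis) of 4 gene lists in each of the 6 libraries (horizontal axis). The 38 vesicle and release genes sit between -0.020 and 0.024 in 5 libraries and at -0.12 in Gde2KO replicate 3, where the superficial dorsal horn markers are at -0.39. Endothelial markers, which are not drawn, are at -0.31 there.

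The members spanned a wide range of levels. To compare genes with one another, levels were taken over coding bases, which removes untranslated ends that were assembled to different lengths. Snap25 was the highest over coding bases, at a mean of 1022 FPKM over the 6 libraries (lowest 956, highest 1123), followed by Cplx1 at 765 (674 to 842). Neither range touched the next. Vamp1 and Rab3a came next at 368.2 and 367.7 FPKM and their ranges overlapped. Coding bases that only some isoforms use were averaged in too, and the main Vamp1 transcript alone had 508 to 580 deposited FPKM. The place of Vamp1 in the order therefore depends on the measure. Syp, Syt11, Dnm1, Nsf and Rph3a followed between 292 and 236 FPKM, each overlapping its neighbour. The lowest were Syt6 at 4.41, Rims2 at 4.35, Syt5 at 3.73 and Stx1a at 3.21 FPKM over coding bases, also with overlapping ranges.

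**Figure D3:**
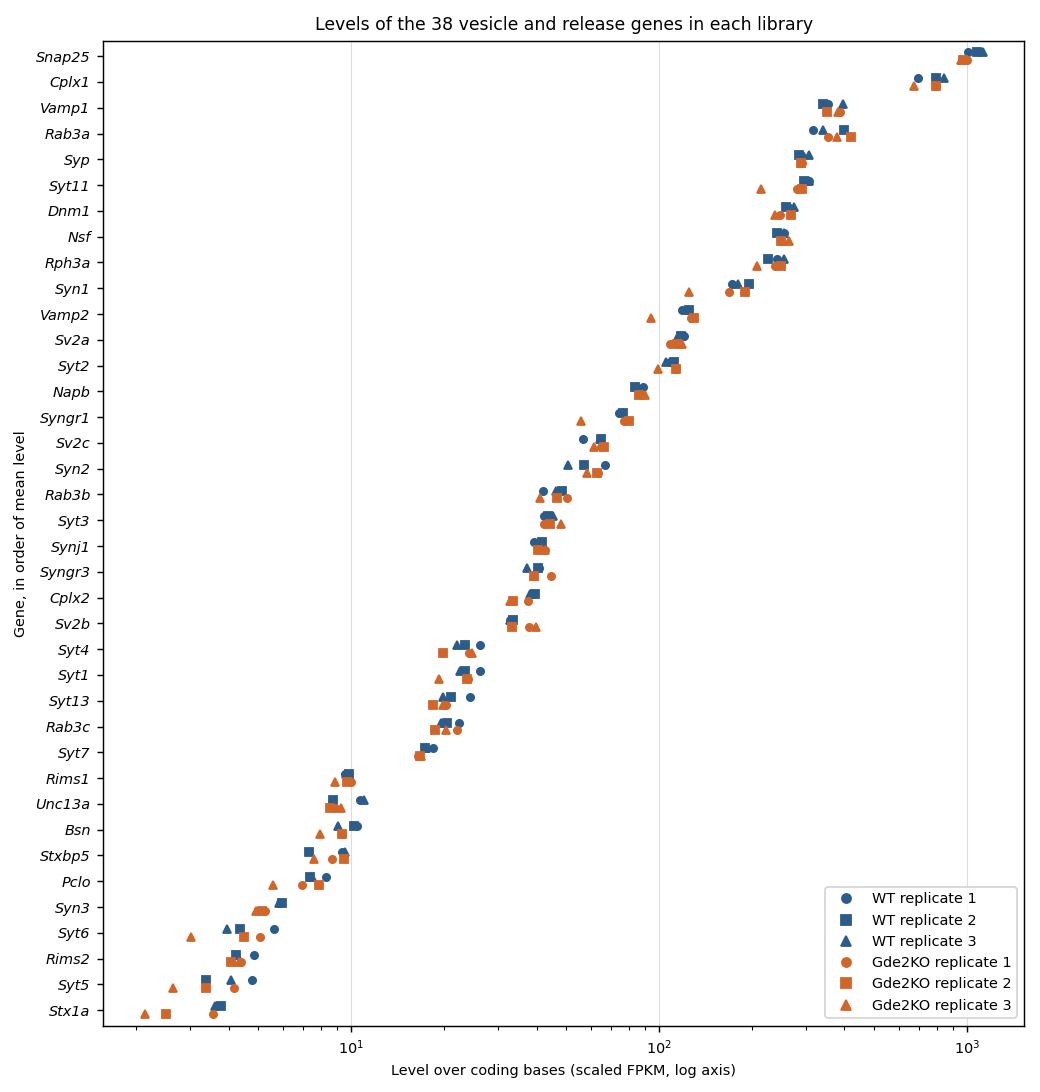
Level of each gene over coding bases (horizontal log axis, scaled FPKM) in the 3 WT and 3 Gde2KO libraries, with genes in order of their mean. Levels run from 3.21 FPKM for Stx1a to 1022 FPKM for Snap25, and the libraries of both genotypes lie together for most genes.

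Among the core SNARE proteins, Snap25, which encodes the plasma membrane SNARE that gives the complex a pair of helices (chromosome 2, 136713453 to 136782428, plus strand), stood at 1009, 942 and 989.7 FPKM in WT and 997, 971 and 956 FPKM in Gde2KO. The groups overlapped, with a log2 difference of -0.0078 (95% interval -0.20 to 0.18). WT replicates 2 and 3 were assembled over 87.4% and 88.1% of its counted bases and the other libraries over all of them. Over the bases assembled in all 6 libraries the level was 1009, 1078 and 1123 FPKM in WT and 997, 971 and 956 FPKM in Gde2KO, so there all WT values lay above all Gde2KO values, with a log2 difference of -0.13 and an unadjusted limma p of 0.183.

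Snap25 carries a pair of neighbouring exons used one at a time, both of which encode the stretch that holds the cysteines for membrane attachment. They are shown because the libraries separate them. Both lie on the plus strand of chromosome 2 in GRCm38, the upstream copy at chr2:136769743-136769860 and the downstream copy at chr2:136770057-136770174, each of 118 bases. The sequences, from the GENCODE vM21 transcripts, are given 5′ to 3′ with capitals at the 31 positions where the copies differ (73.7% identity).
Snap25 upstream exon: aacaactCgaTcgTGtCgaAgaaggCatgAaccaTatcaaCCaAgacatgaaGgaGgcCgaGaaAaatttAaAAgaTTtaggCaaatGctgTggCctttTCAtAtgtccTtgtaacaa
Snap25 downstream exon: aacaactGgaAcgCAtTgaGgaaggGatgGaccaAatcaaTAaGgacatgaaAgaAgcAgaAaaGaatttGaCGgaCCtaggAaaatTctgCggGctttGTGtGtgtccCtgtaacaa
Only the downstream copy was assembled, in all 6 libraries, within a single transcript at 1041, 1091 and 1115 deposited FPKM in WT and 980.5, 958 and 951 in Gde2KO. The upstream copy was in no transcript of any library. The lowest isoform fraction written in the authors' files was 10% in each library, so an isoform rarer than that may be missing from them.

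Stx1a, the plasma membrane syntaxin that pairs with SNAP-25 (chromosome 5, 135023482 to 135051100, plus strand), was low throughout, at 3.66, 3.03 and 2.93 FPKM in WT and 2.92, 2.51 and 2.11 FPKM in Gde2KO. Every Gde2KO value lay below every WT value, with means of 3.21 ± 0.396 FPKM in WT and 2.51 ± 0.402 FPKM in Gde2KO (SD, n = 3 each). The margin between the groups was narrow, since WT replicate 3 was at 2.93 FPKM and Gde2KO replicate 1 at 2.92 FPKM. Its log2 difference was -0.34 (95% interval -0.71 to 0.021), with an adjusted p of 0.882 by limma. The difference was -0.33 over the bases assembled in all 6 libraries, and the groups overlapped there.

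Vamp1, the vesicle SNARE of fast spinal and neuromuscular synapses, stood at 148, 143 and 167 FPKM in WT and 163, 92.3 and 161 FPKM in Gde2KO. Only Gde2KO replicate 2 was low. It assembled 81.3% of the counted bases, while Gde2KO replicate 1 assembled 73.8% and was not low. Gde2KO replicate 2 had 163 FPKM over the bases assembled in all 6 libraries, and on these the log2 difference changed from -0.18 to 0.055. Why that library was low over counted bases was not tested. One assembled transcript with an annotated intron chain, found in all 6 libraries, held most of the gene, at 508 to 580 deposited FPKM. Vamp2, the vesicle SNARE best known from the forebrain, stood at 135, 125 and 125 FPKM in WT and 127, 129 and 93.9 FPKM in Gde2KO, with Gde2KO replicate 3 the lowest and the other 5 libraries close together.

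The SNARE disassembly genes lay slightly above 0 and varied little. Nsf, the ATPase that pulls used SNARE complexes apart, stood at 254, 242 and 254 FPKM in WT and 249, 249 and 263 FPKM in Gde2KO, with a log2 difference of 0.020 (95% interval -0.15 to 0.19). Napb, which encodes the neuronal SNAP that recruits NSF, was between 83.2 and 89.8 FPKM in all libraries and had a log2 difference of 0.040 (95% interval -0.11 to 0.19). The groups overlapped in both genes.

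Of the SNARE regulators, Cplx1, the complexin of many fast spinal and brainstem synapses, stood at 693, 787 and 816 FPKM in WT and 744, 787 and 647 FPKM in Gde2KO, and its lowest value was again Gde2KO replicate 3. Cplx2, its forebrain relative, was far lower and did not overlap between the genotypes, at 38.6, 39.6 and 37.5 FPKM in WT and 37.3, 33.1 and 32.5 FPKM in Gde2KO. Means were 38.6 ± 1.04 FPKM in WT and 34.3 ± 2.62 FPKM in Gde2KO (SD, n = 3 each). Gde2KO replicate 1 lay just under the lowest WT library and the other 2 lay further down. The log2 difference was -0.17 (95% interval -0.35 to 0.014) with an adjusted p of 0.882 by limma, and over the bases assembled in all 6 libraries it was -0.18 with the groups again apart. Stxbp5, or tomosyn, which holds syntaxin in complexes that cannot fuse, was between 7.05 and 7.91 FPKM throughout.

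Synaptotagmins that bind calcium through their C2 domains were headed by Syt2, the fast calcium sensor of spinal and brainstem synapses. Over counted bases Syt2 read 100.5, 104 and 20.9 FPKM in WT and 105, 105 and 19.4 FPKM in Gde2KO, with replicate 3 of both genotypes far below the rest. In those 2 libraries 24.2% and 19.6% of the counted bases were assembled, against 94.7% to 100% elsewhere. Over the bases assembled in all 6 libraries Syt2 stood at 97.3, 100.2 and 110.3 FPKM in WT and 102, 102 and 98.6 FPKM in Gde2KO, and all libraries lay within 97.3 to 110.3 FPKM. Its log2 difference there was -0.019 (95% interval -0.20 to 0.17), where the interval over counted bases ran from -2.50 to 2.48.

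Syt1, the calcium sensor best known from the forebrain, stood at 25.7, 23.2 and 22.3 FPKM in WT and 23.5, 23.3 and 19.0 FPKM in Gde2KO and overlapped between the genotypes. Syt7, a slow, high-affinity sensor of asynchronous release and facilitation (chromosome 19, 10389090 to 10453180, plus strand), had little spread within a genotype, at 21.8, 21.3 and 21.1 FPKM in WT and 19.7, 20.4 and 20.1 FPKM in Gde2KO. All 3 Gde2KO values lay below all 3 WT values. With means of 21.4 ± 0.363 FPKM in WT and 20.1 ± 0.347 FPKM in Gde2KO (SD, n = 3 each), the log2 difference was -0.092 (95% interval -0.22 to 0.034) and the limma adjusted p was 0.882. Of the rest, Syt3 had a log2 difference of 0.045, Syt5 of -0.32 and Syt6 of -0.14, all with overlapping groups.

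The other synaptotagmins, whose C2 domains bind calcium poorly or not at all, held the member with the most negative log2 difference. Syt11, a regulator of vesicle recycling and membrane traffic (chromosome 3, 88744700 to 88775164, minus strand), stood at 298, 294 and 306 FPKM in WT and 281, 282 and 88.5 FPKM in Gde2KO. Gde2KO replicate 3 was far below the rest, and in it 35.0% of the counted bases were assembled, against 96.9% to 100% elsewhere. Over the bases assembled in all 6 libraries the level was 308, 295 and 306 FPKM in WT and 281, 291 and 253 FPKM in Gde2KO. The groups stayed apart there, while the log2 difference went from -0.64 (95% interval -1.83 to 0.54) to -0.14 (-0.34 to 0.063). Syt4, a vesicle protein induced by activity, and Syt13, which lacks the calcium-binding residues, were between 18.3 and 26.2 FPKM and overlapped between the genotypes, with log2 differences of -0.058 and -0.16.

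**Figure D4:**
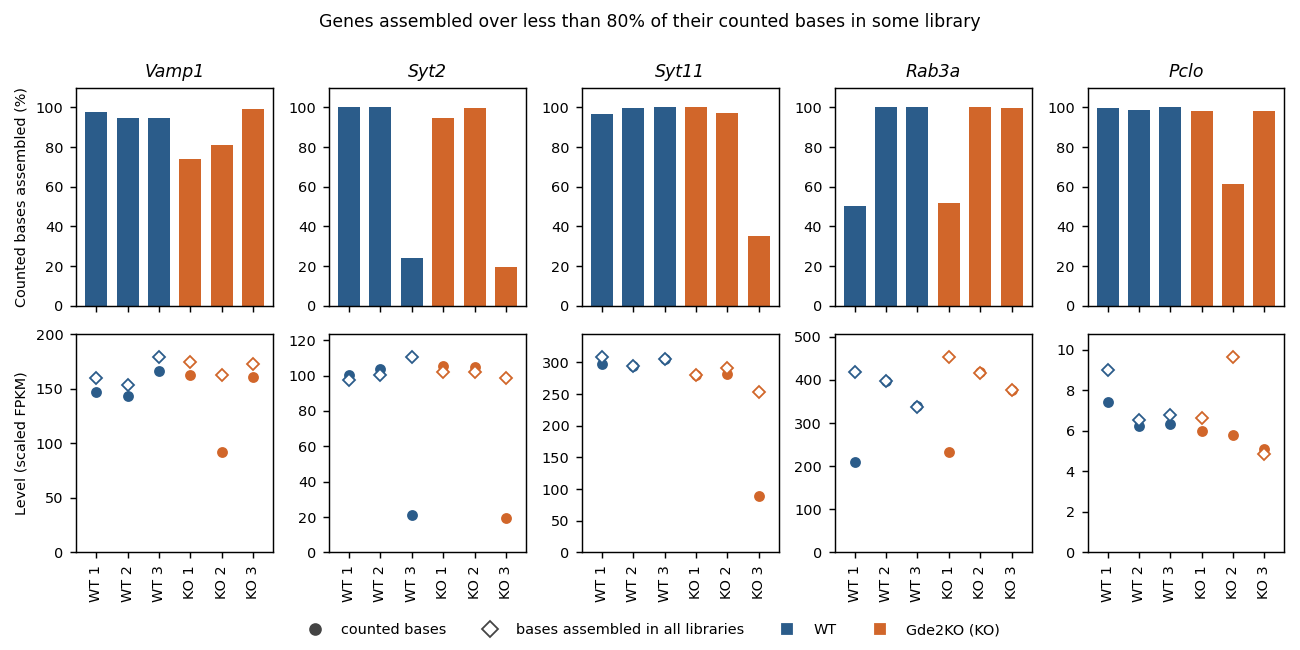
Share of counted bases that each library assembled (upper row, percent) and level (lower row, scaled FPKM; filled points over counted bases, open diamonds over bases assembled in all 6 libraries) for the 5 genes under 80% in some library. Syt2 falls to 19.4 FPKM over counted bases in Gde2KO replicate 3, where 19.6% of them were assembled, and stands at 98.6 FPKM over the shared bases.

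Other members also differed between libraries in how much of them was assembled. In every library 25 of the 38 were assembled over at least 95% of their counted bases, and 5 (Vamp1, Syt2, Syt11, Rab3a and Pclo) fell under 80% somewhere. The remaining members lay between these limits in some library, the lowest being Syn2 at 82.0% in Gde2KO replicate 1. The last exon of the longest Syt11 transcript had 3171 to 3329 bases in 5 libraries and 112 in Gde2KO replicate 3. For 12 members each library held a single transcript, and for 26 an annotated intron chain was assembled in all 6 libraries.

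In all 6 vesicle membrane genes the genotypes overlapped. Syp, or synaptophysin, the abundant partner of synaptobrevin on the vesicle, stood at 324, 327 and 305 FPKM in WT and 325, 318 and 265 FPKM in Gde2KO. Sv2a, a vesicle glycoprotein that is the target of levetiracetam, stood at 120.3, 117 and 115 FPKM in WT and 109, 115 and 119 FPKM in Gde2KO. Gde2KO replicate 3 was the lowest library for Syp but not for Sv2a. Sv2b, its relative, had the highest log2 difference of all members, 0.13 (95% interval -0.049 to 0.32), from 31.0, 31.6 and 30.6 FPKM in WT and 34.9, 31.3 and 36.4 FPKM in Gde2KO. Gde2KO replicates 1 and 3 exceeded all WT libraries and replicate 2 did not. Sv2c, Syngr1 and Syngr3, the last pair being synaptogyrins of the vesicle membrane, had log2 differences of 0.057, -0.11 and -0.11 with overlapping groups.

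The synapsins tie vesicles into the reserve pool, and the least abundant of them had the smallest p of all members. Syn3 (chromosome 10, 86055125 to 86498896, minus strand), the synapsin best known from immature neurons, stood at 5.87, 5.96 and 5.84 FPKM in WT and 5.25, 5.12 and 4.90 FPKM in Gde2KO. The 3 WT libraries were nearly level, and all 3 Gde2KO libraries lay below them. Means were 5.89 ± 0.0657 FPKM in WT and 5.09 ± 0.177 FPKM in Gde2KO (SD, n = 3 each), a fold of 0.866 (0.784 to 0.957). The log2 difference was -0.21 (95% interval -0.35 to -0.064) with an unadjusted p of 0.0126 and an adjusted p of 0.882 by limma, so it was not called. Each library assembled Syn3 as a single transcript with the same annotated intron chain. All 2400 of its counted bases were assembled in all 6 libraries. The difference of -0.20 over those bases thus rests on the same values and is no separate check.

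Syn1, the synapsin of most mature synapses, stood at 173, 197 and 181 FPKM in WT and 169, 191 and 126 FPKM in Gde2KO, with Gde2KO replicate 3 well below the other 5. Syn2 stood at 50.4, 43.3 and 41.1 FPKM in WT and 41.9, 46.6 and 45.4 FPKM in Gde2KO, with the genotypes interleaved. Syn1 and Syn2 each end in alternative last introns that give a long and a short protein tail. The longer of the Syn1 introns carried 49.7%, 61.2% and 54.5% of the gene's last-intron FPKM in WT and 53.1%, 53.3% and 59.4% in Gde2KO (two-sided exact permutation p = 1). For the upstream last intron of Syn2 the shares were 51.1%, 53.6% and 64.6% in WT and 48.2%, 50.2% and 57.5% in Gde2KO (exact permutation p = 0.5). Adjusted over the 15 last-intron shares tested in the members, each p was 1. The smallest p that 3 against 3 libraries can give is 0.1, so no share could pass 0.05.

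Rab3 proteins mark vesicles as ready to dock. Rab3a, the main form, read 210.4, 397 and 339 FPKM in WT and 234, 418 and 377 FPKM in Gde2KO over counted bases, with replicate 1 of both genotypes low. Those 2 libraries had 50.4% and 51.7% of its counted bases assembled. It stood at 418, 396 and 338 FPKM in WT and 452, 417 and 377 FPKM in Gde2KO over the bases assembled in all 6 libraries and the groups overlapped. Rab3b and Rab3c, at 41.0 to 50.05 and 18.7 to 22.3 FPKM, and Rph3a, the Rab3 effector rabphilin, at 205 to 232 FPKM, had log2 differences of 0.040, -0.038 and -0.050.

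Genes of the active zone were low, between 4.97 and 10.7 FPKM on average over the 6 libraries. Unc13a, the Munc13 protein that primes vesicles, stood at 9.22, 8.82 and 9.28 FPKM in WT and 8.92, 8.66 and 9.33 FPKM in Gde2KO. Bsn, or bassoon, a giant scaffold, stood at 10.4, 10.2 and 9.10 FPKM in WT and 10.1, 9.35 and 7.92 FPKM in Gde2KO, with Gde2KO replicate 3 the lowest. Pclo, or piccolo, its partner (chromosome 5, 14514918 to 14863459, plus strand), did not overlap between the genotypes, at 7.41, 6.22 and 6.37 FPKM in WT and 5.98, 5.78 and 5.09 FPKM in Gde2KO. Its log2 difference was -0.24 (95% interval -0.49 to 0.0077) with an adjusted p of 0.882 by limma. Gde2KO replicate 2 assembled 61.3% of the counted bases of Pclo and the other libraries at least 97.9%. Over the bases assembled in all 6 libraries Pclo stood at 8.99, 6.55 and 6.78 FPKM in WT and 6.66, 9.63 and 4.86 FPKM in Gde2KO, so the groups overlapped and the difference was -0.11. Rims1 and Rims2, which link Rab3 vesicles to calcium channels, had log2 differences of -0.023 and 0.045.

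A pair of neighbouring Rims2 exons on chromosome 15 was assembled differently in some libraries. The downstream exon (39452224 to 39452432, 209 bases) made up 36.4%, 36.0% and 37.8% of the FPKM over both in WT and 100%, 67.1% and 38.5% in Gde2KO (two-sided exact permutation p = 0.1, the smallest possible; 0.2 adjusted over the 2 exon pairs tested). Both exons were at 4.62 FPKM or less in every library, and Gde2KO replicate 3 was close to the WT libraries. The 100% in Gde2KO replicate 1 means that no transcript with the upstream exon was assembled there. Isoforms under a fraction of 10% may be missing from the authors' files, so exon use itself was not measured.

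For endocytosis, Synj1, or synaptojanin, the lipid phosphatase that uncoats clathrin vesicles, was between 40.5 and 42.6 FPKM in all libraries. Dnm1, the neuronal dynamin that cuts vesicles off the membrane (chromosome 2, 32308471 to 32353338, minus strand), stood at 265, 262 and 277 FPKM in WT and 249, 271 and 240.2 FPKM in Gde2KO, with overlapping groups and a log2 difference of -0.082 (95% interval -0.27 to 0.11).

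Dnm1 also has a pair of exons used one at a time, which encode the same stretch of the dynamin stalk, and here both were assembled in all 6 libraries. On the minus strand of chromosome 2 in GRCm38 the upstream copy lies at chr2:32334682-32334820 and the downstream copy at chr2:32333066-32333204, each of 139 bases. They are printed from the GENCODE vM21 transcripts to show how far the alternatives differ, with capitals at the 39 positions that differ (71.9% identity).
Dnm1 upstream exon: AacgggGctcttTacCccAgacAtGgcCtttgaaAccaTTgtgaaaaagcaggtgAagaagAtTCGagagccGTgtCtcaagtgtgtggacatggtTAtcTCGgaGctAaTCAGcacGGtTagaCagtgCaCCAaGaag
Dnm1 downstream exon: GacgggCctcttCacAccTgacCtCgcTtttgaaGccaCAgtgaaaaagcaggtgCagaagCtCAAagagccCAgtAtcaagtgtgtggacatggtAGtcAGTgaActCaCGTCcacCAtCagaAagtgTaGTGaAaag
Transcripts with the downstream copy made up 51.6%, 48.9% and 58.5% of the deposited FPKM over both copies in WT, and 45.3%, 46.0% and 49.6% in Gde2KO. Gde2KO replicate 3 lay above WT replicate 2, so the groups overlapped. The mean share was 53.0% ± 4.96 (SD, n = 3) for WT and 47.0% ± 2.31 (SD, n = 3) for Gde2KO (two-sided exact permutation p = 0.2, raw and adjusted over 2 pairs, where 0.1 is the smallest possible raw value).

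Ratios between related genes were taken within each library, on FPKM + 0.1. Over coding bases Vamp1 exceeded Vamp2 by 2.72-fold to 4.06-fold, Syt2 exceeded Syt1 by 4.13-fold to 5.13-fold, and Cplx1 exceeded Cplx2 by 17.6-fold to 23.7-fold in the 6 libraries. Over counted bases, which were assembled unevenly for Vamp1 and Syt2, the log2 ratio of Vamp1 to Vamp2 was -0.49 in Gde2KO replicate 2 and that of Syt2 to Syt1 was -0.090 in WT replicate 3, so these ratios turned there. In the other libraries the log2 ratio of Vamp1 to Vamp2 was 0.12 to 0.77 over counted bases, against 1.44 to 2.02 over coding bases in all 6. Over the bases assembled in all 6 libraries Vamp1 stood at 154 to 179 FPKM and Vamp2 at 94.0 to 136 FPKM. The size of the Vamp1 excess therefore depends on the measure in every library. Among 12 pairs, only Sv2b/Sv2a separated the genotypes completely over coding bases, with log2 ratios of -1.88, -1.81, -1.81 in WT and -1.53, -1.78, -1.57 in Gde2KO. The difference of 0.21 had a two-sided exact permutation p of 0.1, the smallest possible, and 0.686 after Benjamini-Hochberg adjustment over the 12 pairs. For the other 11 pairs the exact p over coding bases was between 0.3 and 1.

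**Figure D5:**
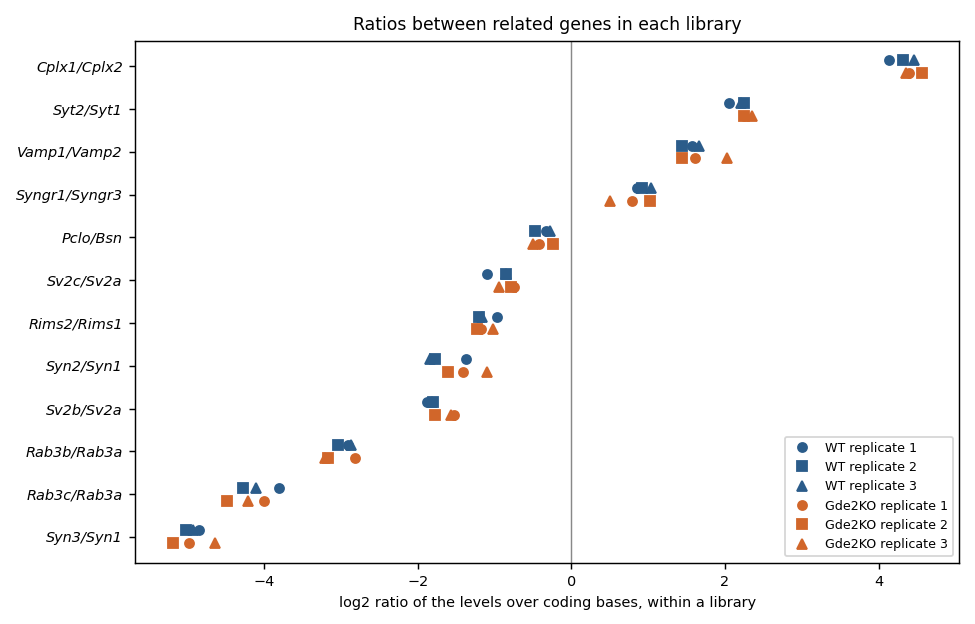
Log2 ratio of the levels of 12 pairs of related genes over coding bases (horizontal axis), within each WT and Gde2KO library. Cplx1/Cplx2 runs from 4.13 to 4.57 and Syt2/Syt1 from 2.05 to 2.36, and the genotypes stand apart for Sv2b/Sv2a only.

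The rest of the release pathway, 51 further genes that act in docking, priming, fusion and its calcium control, gave no call either. Of the 43 tested, 18 were higher and 25 lower in Gde2KO, with a median log2 difference of -0.024. Cplx3, Cplx4 and Syt8 were listed at 0 in all libraries and Vamp7 was not matched. Stx2, a syntaxin of the plasma membrane, had the smallest p of the list, at 4.87, 4.60 and 4.85 FPKM in WT and 5.92, 6.17 and 5.87 FPKM in Gde2KO. Its groups were well apart, with a log2 difference of 0.32 (0.17 to 0.47) and an adjusted p of 0.627 by limma. Syt9, a calcium-binding synaptotagmin, stood at 4.37, 3.99 and 3.66 FPKM in WT and 3.42, 3.04 and 2.92 FPKM in Gde2KO, a log2 difference of -0.35 (adjusted p = 0.882).

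Vamp8, a vesicle SNARE of endosomes and secretory cells, and Dnajc5, which encodes the vesicle chaperone CSP alpha, were the next lowest by p among the release genes. Vamp8 stood at 16.5, 15.9 and 15.5 FPKM in WT and 14.2, 13.9 and 10.7 FPKM in Gde2KO, without overlap. Dnajc5 stood at 47.3, 46.0 and 46.7 FPKM in WT and 45.5, 11.7 and 12.4 FPKM in Gde2KO, with Gde2KO replicate 1 close to WT and the other 2 far below. Those 2 libraries assembled 20.1% and 21.5% of its counted bases, and the other 4 all but a trace. Over the bases assembled in all 6 libraries the same gene read 47.3, 46.0 and 46.7 FPKM in WT and 44.0, 58.1 and 57.7 FPKM in Gde2KO, and its log2 difference turned from -1.31 to 0.18. Vamp8 and Dnajc5 had an adjusted p of 0.882 by limma over counted bases.

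In the second list, 43 genes of vesicle filling, coats and recycling, 41 were tested, 20 higher and 21 lower, and none was called. Its median log2 difference was -0.0037. Slc17a7, the vesicular glutamate transporter of the forebrain, was listed at 0 throughout, and Slc17a6, the transporter of spinal and subcortical neurons, was between 31.3 and 34.4 FPKM. Sh3gl3, an endophilin, stood at 20.7, 30.5 and 29.5 FPKM in WT and 42.7, 42.3 and 34.8 FPKM in Gde2KO, without overlap and with a log2 difference of 0.58 (adjusted p = 0.882 by limma). Ap2s1 and Cltc, parts of the clathrin coat, had log2 differences of 0.17 and 0.13, and Synj2, a relative of synaptojanin, of -0.22, all with an adjusted p of 0.882.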

How the data were processed

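Poly-A RNA of 3 WT and 3 Gde2KO libraries was sequenced on 1 flow cell and lane, per the labels. The deposited files are single-library Cufflinks assemblies whose FPKM values were made by the authors. Per the submitters' processing notes, FastQC, TopHat2 2.1.1, Cufflinks 2.2.1, Cuffdiff 2.2.1 and the build mm10 were used. The other deposited text of each file (coordinates, strand, attributes) was also the authors'.

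Transcripts with at least 200 exonic bases were matched by same-strand exon overlap to GENCODE vM21 (GRCm38, which mm10 denotes). Transcripts without an assembled strand counted only where the opposite strand has no exon. At every counted base the FPKM of all overlapping transcripts were added, and the mean over counted bases was the gene's level. Testing required 200 counted bases and 1 FPKM on average. Median-of-ratios factors (0.983 to 1.03) scaled the libraries. Values of log2(FPKM + 0.1) were compared with limma 3.58.1 (R 4.3.3), with trend and robust moderation, two-sided, Benjamini-Hochberg adjusted, and was tested on simulated data. The pseudocount understates differences of low genes. The files hold no read counts, so no count test or counting interval was made.

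Per-library values follow a fixed rule: members that are called, members without overlap, 18 chosen members, and of the 2 wider lists up to 4 genes of smallest p in each direction. Sv2b, Slc17a6 and the exon and last-intron pairs fall outside it and were chosen after their values were seen. The members, lists and rule were chosen with earlier results of these data known. Alternatives changed the gene level, pseudocount, filter, scaling, zeros, replicate block and single libraries. Levels over coding bases and over bases assembled in all 6 libraries, and last-intron shares, were added after seeing the data.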

Additional observations from a re-analysis of the deposited data

How the results depend on the processing

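No member was called under any of the 18 alternatives, and the smallest adjusted p among the members ran from 0.784 to 0.992 over the settings (limma). In 17 members, 15 of them below 0, the log2 difference kept its direction under every alternative that tested them. A mean of at least 5 FPKM left 34 members to test, so Stx1a and Syt5, which are among the 17, were not tested under it. The count of all genes called, 15 in the report, was 4 with a pseudocount of 0.01, 1 with a mean of at least 5 FPKM, 4 with zeros as missing, 4 over bases assembled in all 6 libraries, and 10 to 26 when a library was left out. The calls were 5 higher and 10 lower with all libraries, but 22 higher and 4 lower without WT replicate 2, 13 higher and 3 lower without WT replicate 3, and 7 higher and 3 lower without WT replicate 1. With the replicate block 2 genes were called and no member. Same-numbered libraries had correlations of 0.0107, 0.0357 and -0.0671 in their deviations from the group means. Libraries of unlike number had -0.0631 to 0.0508, so no pairing by number was seen over all genes. Whether same-numbered samples shared a litter or day cannot be told from these values. The members' median log2 difference ran from -0.097 to -0.015 with a library left out, and the value of -0.015 came without Gde2KO replicate 3. Unscaled values gave 31 members below 0 and a median of -0.10, where the median of all genes was -0.033.

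Directions that turned were as follows, and the cause was not tested. By fragments per gene the log2 difference was 0.029 for Snap25, -0.019 for Syt3, 0.24 for Syt6, -0.0050 for Sv2c, 0.022 for Syngr1 and -0.063 for Rims2, and the ratio difference between the genotypes was 0.0020 for Syn3/Syn1, 0.011 for Rab3b/Rab3a, -0.024 for Rims2/Rims1 and 0.034 for Syngr1/Syngr3. By the plain sum of transcripts it was 0.074 for Vamp1, 0.46 for Stxbp5, 0.018 for Syp, 0.12 for Syn2, 0.046 for Rims1 and -0.014 for Synj1, with ratios of 0.23 for Vamp1/Vamp2 and 0.52 for Syngr1/Syngr3. Over bases assembled in all 6 libraries it was 0.055 for Vamp1 and 0.054 for Syn2, with ratios of 0.21 for Vamp1/Vamp2, 0.066 for Syngr1/Syngr3 and 0.0077 for Pclo/Bsn. Over coding bases it was 0.046 for Vamp1, 0.0042 for Syt2, 0.059 for Syngr3, 0.093 for Syn2 and -0.051 for Rims2, with ratios of 0.13 for Vamp1/Vamp2 and -0.032 for Rims2/Rims1. Without scaling it was -0.014 for Nsf and -0.0062 for Synj1, and with a pseudocount of 1 the Syn3/Syn1 ratio was 0.023.

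Leaving out each library in turn, the log2 difference ran from -0.036 to 0.013 for Snap25, from -0.32 to 0.088 for Vamp1, from -0.0067 to 0.035 for Nsf, from -0.15 to 0.0042 for Cplx1, from -0.058 to 0.023 for Stxbp5, from -0.77 to 0.80 for Syt2, from -0.014 to 0.089 for Syt3, from -0.28 to 0.025 for Syt6, from -0.11 to 0.039 for Syt4, from -0.13 to 0.014 for Syp, from -0.0081 to 0.094 for Sv2c, from -0.21 to 0.053 for Syngr1, and from -0.067 to 0.079 for Syn2. The same range was -0.14 to 0.38 for Rab3a, -0.025 to 0.12 for Rab3b, -0.097 to 0.021 for Rab3c, -0.050 to 0.0032 for Unc13a, -0.074 to 0.036 for Rims1 and -0.062 to 0.10 for Rims2. For ratios it was -0.31 to 0.32 for Vamp1/Vamp2, -0.61 to 0.82 for Syt2/Syt1, -0.15 to 0.12 for Syn3/Syn1, -0.41 to 0.14 for Rab3b/Rab3a, -0.48 to 0.15 for Rab3c/Rab3a, -0.045 to 0.14 for Rims2/Rims1 and -0.16 to 0.20 for Syngr1/Syngr3. Depth is known only relative to the average, and 3 libraries a group limit the precision.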
